A study of Mus musculus with 25 samples.

Results

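The naive pluripotency factors described here are 10 genes, *Nanog*, *Esrrb*, *Tfcp2l1*, *Klf2*, *Klf4*, *Klf5*, *Zfp42*, *Tbx3*, *Nr0b1* and *Dppa3*, out of the 48440 genes counted. They were chosen by name as known members of the naive network of mouse embryonic stem (ES) cells, and each symbol matched 1 Ensembl gene ID of the count table. The group was proposed with its opposite movement under inhibitor and mutation already known from these libraries, so the tests below describe that movement and are not independent evidence of it. The cells were E14IVtg2a (E14), a mouse ES line kept without feeders in serum and leukemia inhibitory factor (LIF), and their transcripts were counted by mcSCRB-seq, a bulk method that reads 3′ ends and counts molecules by unique molecular identifiers (UMIs). CHIR99021 was given to unedited E14 cells for 48 h at 2.5, 5, 7.5 or 10 µM or not at all (0 µM), and 2 libraries were made per dose. This compound inhibits GSK3, the kinase that marks β-catenin for degradation. A further 15 libraries came 1 each from clones labelled 0 µM, heterozygous for 1 of 11 missense changes at codon 37, 41 or 45 of *Ctnnb1*, the β-catenin gene. These clones had passed through insertion of a selection cassette on 1 allele, its replacement by a repair donor and colony picking, which the unedited cells had not, and a library stands for 1 clone.

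Clones are given in 3 classes of the mutation effect score (MES), which the study derived for each substitution from β-catenin reporter activity in a separate screen. Scores under 10000 made the low class, in ascending order T41S (clone H8), S45C (D3) and T41N (also named D3). Those from 10000 to 18000 made the medium class, S45P (G5) and S45F (C1 and D9). The 9 clones above 18000 made the high class, S37Y (A5), S37C (G12), S37A (A10), T41A (C1 and E6), T41I (A6 and B9) and S37F (G1 and H2). These limits coincide with clusters that the study drew from these same libraries, so a difference between classes is not independent of them.

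Naive pluripotency is the state of the early epiblast, which ES cells keep in culture through a network of transcription factors that activate each other's genes. LIF acts on it through STAT3, for which *Klf4* and *Tfcp2l1* are known targets. β-catenin acts on it by relieving repression by TCF7L1, for which *Esrrb*, *Klf2* and *Tfcp2l1* are known targets. *Nanog* encodes a homeodomain factor of self-renewal, and *Esrrb* an orphan nuclear receptor that can replace it. *Klf2*, *Klf4* and *Klf5* encode Krüppel-like zinc finger factors with overlapping functions, and *Tfcp2l1* a CP2-family factor. *Tbx3* encodes a T-box factor. *Nr0b1* encodes the nuclear corepressor DAX1, *Zfp42* the zinc finger protein REX1, a common marker of the naive state, and *Dppa3* the protein STELLA, which protects methylated DNA and is expressed in only part of an ES cell culture.

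The genes lie on 8 chromosomes of GRCm38 (mm10). *Tfcp2l1* spans 118627945 to 118685168 on chromosome 1, *Klf4* 55527143 to 55532466 on chromosome 4, *Tbx3* 119670669 to 119684724 on chromosome 5, and *Esrrb* 86361117 to 86521628 on chromosome 12. *Dppa3* (122626410 to 122630272) and *Nanog* (122707489 to 122714633) are near each other on chromosome 6. *Zfp42* (43295063 to 43306980) and *Klf2* (72319033 to 72321656) are both on chromosome 8. *Klf5* spans 99298691 to 99315036 on chromosome 14 and *Nr0b1* 86191764 to 86195947 on chromosome X. *Tbx3* overlaps the exons of its antisense gene *Tbx3os1*, which had 139 counts over the 25 libraries against 4225 for *Tbx3*, and whether counting used strand is not given in the sources used here.

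RefSeq promoter sequences (GRCm38.p6) were at hand for 7 of the 10 factors, *Nanog*, *Esrrb*, *Tfcp2l1*, *Klf2*, *Klf4*, *Zfp42* and *Nr0b1*. Shown are the 250 bases before the start of *Nanog* and *Zfp42*, which fell with CHIR99021, and of *Tfcp2l1*, which rose, 5′ to 3′ on the strand of the gene, for *Nanog* before the first of its RefSeq starts. Capitals mark the core letters (TTTGCAT) of the octamer of POU factors and the KLF-type motif (GGGCGTG or GGGTGTG). Both were searched on both strands, so a KLF-type motif on the other strand reads CACGCCC or CACACCC.

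Nanog, chr6:122707239-122707488, plus strand: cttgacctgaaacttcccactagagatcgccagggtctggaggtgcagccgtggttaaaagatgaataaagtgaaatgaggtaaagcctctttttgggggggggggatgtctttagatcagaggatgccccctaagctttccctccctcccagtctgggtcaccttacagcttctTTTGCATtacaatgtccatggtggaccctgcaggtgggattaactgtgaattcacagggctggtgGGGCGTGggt

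Zfp42, chr8:43307010-43307259, minus strand: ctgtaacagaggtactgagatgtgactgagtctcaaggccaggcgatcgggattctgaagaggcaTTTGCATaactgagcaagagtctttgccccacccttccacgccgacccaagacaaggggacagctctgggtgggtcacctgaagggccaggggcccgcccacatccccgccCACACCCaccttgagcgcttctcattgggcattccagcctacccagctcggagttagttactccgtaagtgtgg

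Tfcp2l1, chr1:118627695-118627944, plus strand: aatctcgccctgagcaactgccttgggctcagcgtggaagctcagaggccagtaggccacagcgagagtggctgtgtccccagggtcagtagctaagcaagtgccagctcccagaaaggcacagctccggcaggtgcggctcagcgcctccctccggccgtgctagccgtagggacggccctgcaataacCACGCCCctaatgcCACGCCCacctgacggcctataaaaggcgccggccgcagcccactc

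The octamer core begins 75 bases before the first start of *Nanog* and 185 before that of *Zfp42*, and no other of the 7 factors had it in this window. It stood in 4.12% of all 32851 promoter windows of this length. KLF-type motifs begin 10 bases before the first start of *Nanog*, 74 before that of *Zfp42* and 60 and 46 before that of *Tfcp2l1*. Another begins 221 before the first start of *Esrrb*, which did not pass the test with CHIR99021. KLF-type motifs stood in 13.8% of all windows. From the second start of *Nanog*, its octamer core and KLF-type motif begin 151 and 86 bases before. The motifs do not overlap each other in these windows. None of the 7 factors held the TCF/LEF letters (CTTTGAA and CTTTGAT, or with the last 2 letters as TA or TT, on either strand, in 14.8% of all windows) or the ESRRB half-site (AAGGTCA, in 4.08%). These are matches of letters and say nothing of binding.

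The libraries of the dose series held 306157 to 2083398 counts and those of the clones 495616 to 2025273. Levels are given in CPM, a gene's count scaled to a library total of 1e+06, and intervals of single libraries are Wilson 95% intervals, which cover counting error only. A count of 0 allows up to 3 counts, or 1.44 to 9.80 CPM depending on the library. The ES cell markers *Pou5f1*, *Sox2*, *Sall4* and *Utf1* summed to 1610 and 1620 CPM in the untreated libraries, 897 to 982 at 7.5 and 10 µM and 1043 to 1828 in the clones. Of these 4, *Sox2* and *Utf1* fell with dose (adjusted p = 0.00495 and 2.98e-08, edgeR), alongside the naive factors, and their part in the results was not tested. *Pou5f1*, the gene of OCT4, was itself counted low, at 15.9 and 18.5 CPM in the untreated libraries. Mitochondrial transcripts took 0.485 to 0.562% of counts in 4 dose libraries (0 µM replicate 2, 2.5, 5 and 10 µM replicate 1), 0.986 to 1.46% in the other 6, and 1.53 to 2.52% in the clones. In bulk RNA, fewer cells expressing a gene and less RNA per cell cannot be told apart.

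With CHIR99021, the factors split into 3 that rose, 5 that fell and 2 that did not pass the test. *Tfcp2l1*, *Klf4* and *Tbx3* rose, by 0.57, 0.77 and 1.12 log2 units per 10 µM in the fitted trend. *Nanog*, *Klf2*, *Zfp42*, *Nr0b1* and *Dppa3* fell by 0.56, 0.49, 0.46, 0.93 and 1.39 log2 units per 10 µM. *Esrrb* and *Klf5* gave trends of −0.03 ± 0.12 and 0.02 ± 0.14 log2 units (SE, n = 10 libraries). Of the 10033 genes tested, 5.89% rose and 6.63% fell at an adjusted p under 0.05 (edgeR quasi-likelihood F-test, Benjamini-Hochberg). The median trend was −0.25 log2 over the 10 factors and 0.01 over all genes tested. The rise of *Tfcp2l1* had the largest adjusted p of the 8, 0.03 (edgeR), which DESeq2 put at 0.0558. Single libraries decided 3 of the trend calls. Without 0 µM replicate 1 or 2, or 7.5 µM replicate 1 or 2, the adjusted p of *Tfcp2l1* was 0.253, 0.293, 0.0602 or 0.0545, without 0 µM or 10 µM replicate 2 that of *Nanog* was 0.081 or 0.0554, and without 0 µM replicate 1 that of *Zfp42* was 0.193 (edgeR).

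**Figure D1:**
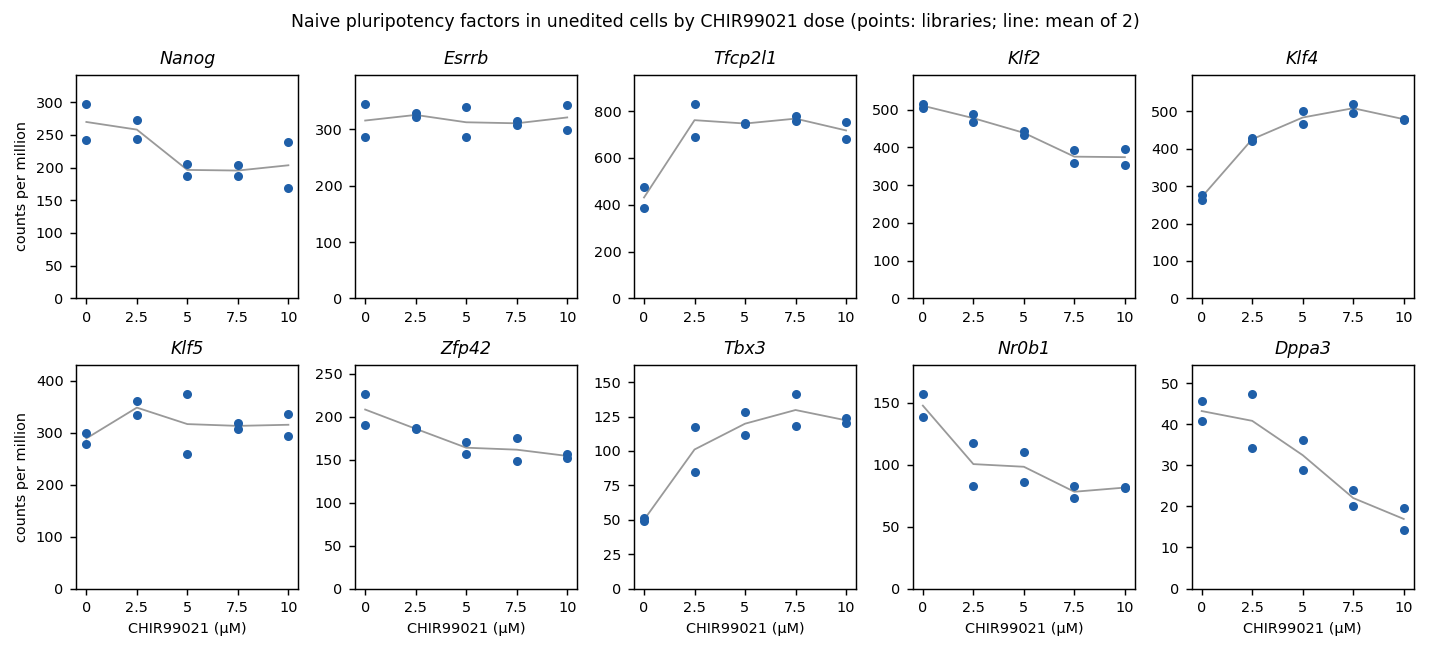
Level of each naive factor in CPM (vertical axes, from 0) against CHIR99021 in µM in unedited cells; points are single libraries and lines join the means of 2. *Tfcp2l1*, *Klf4* and *Tbx3* stand higher at 2.5 µM than at 0 µM in every library, while *Dppa3* goes from 40.8 and 45.7 CPM at 0 µM to 19.6 and 14.3 CPM at 10 µM.

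Among the factors that rose, *Tbx3* read 48.9 and 51.0 CPM at 0 µM, 84.8 and 117 at 2.5 µM, 128 and 111 at 5 µM, 142 and 118 at 7.5 µM, and 124.1 and 120.5 CPM at 10 µM. All treated libraries lay above both untreated ones, and *Tbx3* was 2.13-fold higher at 2.5 µM (log2 1.09 ± 0.19, SE; adjusted p = 0.000199, edgeR) and 2.53-fold higher at 7.5 and 10 µM together (adjusted p = 2.50e-08, edgeR). *Klf4* read 264 and 278 CPM untreated, 430 and 421 at 2.5 µM, and 478 to 520 over the 4 libraries at 7.5 and 10 µM. It was 1.60-fold higher at 2.5 µM (log2 0.68 ± 0.13, SE; adjusted p = 0.000769, edgeR) and 1.84-fold higher at the top doses. *Tfcp2l1* read 475 and 387 CPM untreated and 691 and 832 at 2.5 µM, a 1.80-fold difference (log2 0.84 ± 0.13, SE; adjusted p = 3.30e-05, edgeR). At 7.5 and 10 µM it read 683 to 778 CPM, no higher than at 2.5 µM, and its difference between the top doses and 2.5 µM was −0.05 ± 0.11 log2. Its linear trend rested on the untreated libraries and was −0.10 log2 per 10 µM (adjusted p = 0.885, edgeR) with both left out.

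Among the factors that fell, *Nr0b1* read 157 and 138 CPM at 0 µM, 118 and 83.1 at 2.5 µM, 110 and 86.4 at 5 µM, 73.3 and 83.0 at 7.5 µM, and 81.7 and 81.3 at 10 µM. All treated libraries lay below the untreated ones, and the fall of 0.89 ± 0.14 log2 (SE) at the top doses passed the test (adjusted p = 9.50e-06, edgeR). At 2.5 µM the fall of 0.59 ± 0.17 log2 had an adjusted p of 0.0458 (edgeR). This call was kept in 8 of 16 alternative fits, over which the log2 difference ran from −0.84 to −0.28. It was lost with DESeq2, with thinned counts, with a replicate block and on leaving out single libraries of 0, 2.5 or 7.5 µM. *Dppa3* read 40.8 and 45.7 CPM untreated, 47.4 and 34.3 at 2.5 µM, 36.2 and 28.8 at 5 µM, 23.9 and 20.2 at 7.5 µM, and 19.6 and 14.3 at 10 µM, from 6 to 75 counts a library. It fell by 1.21 ± 0.23 log2 at the top doses against 0 µM (adjusted p = 0.00015, edgeR). The libraries at 2.5 µM overlapped the untreated ones in *Dppa3*, and its fall came at the higher doses.

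*Klf2* read 505 and 516 CPM untreated, 467 and 488 at 2.5 µM and 353 to 395 at the top doses, a fall of 0.43 ± 0.11 log2 (SE; adjusted p = 0.00322, edgeR) with no overlap. *Zfp42* read 227 and 190 CPM untreated and 149 to 175 at the top doses, and fell by 0.41 ± 0.12 log2 (adjusted p = 0.0135, edgeR). *Nanog* read 242 and 298 CPM untreated and 169 to 238 at the top doses, and fell by 0.46 ± 0.13 log2 (adjusted p = 0.00823, edgeR). The lowest untreated (241.9 CPM) and the highest top-dose library (238.4 CPM, 10 µM replicate 1, 73 counts) nearly met. The calls of *Nanog* and *Zfp42* each depended on single libraries. That of *Nanog* was lost without 0 µM or 10 µM replicate 2. That of *Zfp42* was lost without 0 µM replicate 1, 7.5 µM replicate 2 or 10 µM replicate 2. DESeq2 and thinned counts lost both calls. Over 16 alternative fits the log2 difference ran from −0.64 to −0.28 for *Nanog* and from −0.50 to −0.29 for *Zfp42*.

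Between 0 and 2.5 µM, 3 factors rose and only *Nr0b1* fell, where 1.28% of 10674 genes rose and 1.04% fell. Of these rises, *Klf4* had an adjusted p of 0.0722 without 0 µM replicate 1 and *Tbx3* one of 0.101 without 2.5 µM replicate 2 (edgeR), while *Tfcp2l1* kept its call with each library left out in turn. The 5 fibroblast markers summed to 27.6 and 36.4 CPM in the untreated libraries, 84.8 and 93.0 at 2.5 µM and 31.6 to 40.9 at the top doses. Both fibroblast markers tested, *Col1a1* and *Col1a2*, rose in the step to 2.5 µM and fell from there to the top doses, and their part in the results was not tested. Between 0 µM and the top doses 3 rose and 5 fell, with 7.35% and 8.45% of genes. Between 2.5 µM and the top doses none of the 10 rose and *Dppa3* alone fell, by 1.11 ± 0.25 log2 (SE; adjusted p = 0.00821, edgeR), with 0.909% and 0.749% of genes. Without 2.5 µM replicate 1 or 10 µM replicate 2 its adjusted p was 0.174 or 0.249 (edgeR). *Klf2* and *Nanog* had differences of −0.36 ± 0.11 and −0.43 ± 0.13 log2 in that last step (adjusted p = 0.0839 and 0.0965, edgeR). With the 2 sets of mitochondrial share as a block these passed the test too (adjusted p = 0.00456 and 0.0242, edgeR). That block kept the calls of all 8 factors in the trend and between 0 µM and the top doses.

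Across the mutant clones, 8 of the 10 factors rose with MES and none fell. The trends per 10000 MES were 2.02-fold for *Tbx3*, 1.93-fold for *Tfcp2l1*, 1.79-fold for *Klf4*, 1.52-fold for *Esrrb*, 1.46-fold for *Nr0b1*, 1.39-fold for *Klf5*, 1.32-fold for *Zfp42* and 1.24-fold for *Klf2*. Their adjusted p ran from 3.07e-06 for *Tfcp2l1* to 0.0163 for *Klf2* (edgeR, 15 clones). *Nanog* had 0.24 ± 0.12 log2 (SE; adjusted p = 0.15, edgeR) and *Dppa3* −0.42 ± 0.30 log2 (adjusted p = 0.35, edgeR). Of 10145 genes tested, 9.91% rose and 13.0% fell with MES, and the median trend was 0.51 log2 over the factors and under 0.01 over all genes.

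**Figure D2:**
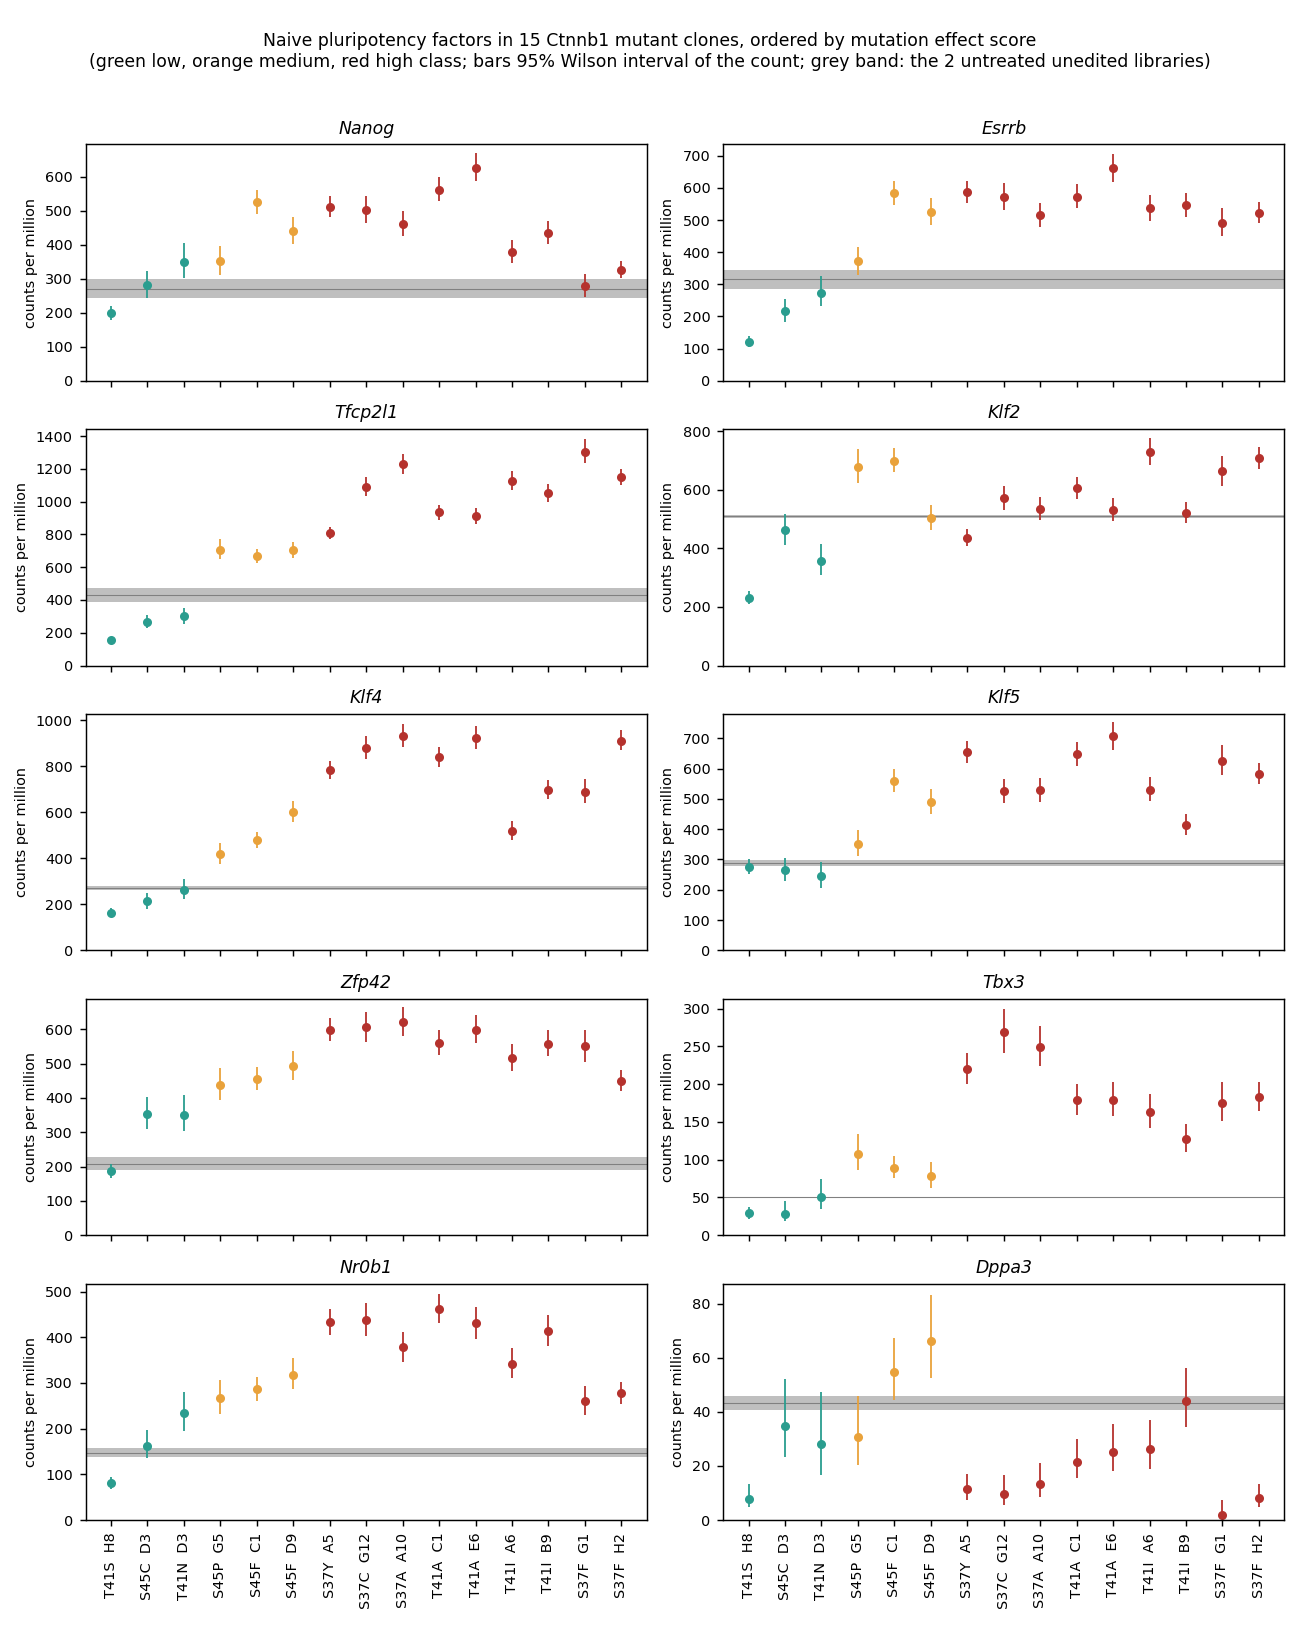
Level of each naive factor in CPM (vertical axes, from 0) in the 15 clones in order of MES, with green, orange and red points for the low, medium and high class, bars for the Wilson 95% interval of the count, and a grey band for the 2 untreated unedited libraries. *Tfcp2l1* goes from 154 CPM in T41S clone H8 to 1306 CPM in S37F clone G1, while *Dppa3* is highest, at 66.0 CPM, in a medium clone.

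Much of the rise lay between the classes. High clones exceeded low clones in 9 of the 10 factors at an adjusted p under 0.05 and none was lower, where 13.1% of 10452 genes were higher and 16.6% lower. *Tfcp2l1* read 154, 267 and 301 CPM in T41S, S45C and T41N, 707 in S45P, 667 and 703 in the S45F clones, and 807 to 1306 (median 1090) in the 9 high clones. The 3 classes did not overlap. High clones were 4.60-fold above low ones (log2 2.20 ± 0.18, SE; adjusted p = 7.41e-09, edgeR). *Klf4* read 163, 213 and 262 CPM in the low clones, 419, 479 and 600 in the medium and 519 to 931 (median 839) in the high ones, a 3.85-fold difference of high from low (adjusted p = 4.57e-08, edgeR). *Esrrb* read 121, 216 and 274 CPM in the low clones, 371, 584 and 525 in the medium and 491 to 661 (median 546) in the high clones, 2.86-fold above low (log2 1.51 ± 0.18, SE; adjusted p = 1.05e-06, edgeR). Medium and high clones overlapped in *Esrrb* and *Klf4*.

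*Tbx3* had the steepest difference, with 28.8, 28.7 and 50.4 CPM in the low clones, 108, 89.1 and 78.0 in the medium and 128 to 269 (median 179) in the high ones. The classes did not overlap, and high clones were 5.72-fold above low ones (log2 2.52 ± 0.24, SE; adjusted p = 5.39e-08, edgeR). *Klf5* read 276, 264 and 244 CPM in the low clones and 414 to 706 (median 582) in the high ones, a 2.21-fold difference (adjusted p = 7.70e-06, edgeR). *Zfp42* read 186, 353 and 351 CPM against 450 to 620 (median 560), 1.95-fold (adjusted p = 2.93e-05, edgeR). *Nr0b1* read 80.8, 163 and 234 CPM against 260 to 462 (median 413), 2.56-fold (adjusted p = 8.89e-05, edgeR). Low and high clones did not overlap in these 3 factors. Here and elsewhere, the share of all genes whose groups did not overlap was not counted. Non-overlap therefore describes single factors and is not a result about the set.

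*Klf2* and *Nanog* had smaller differences with overlap between the classes. *Klf2* read 232, 462 and 357 CPM in the low clones and 437 to 731 (median 571) in the high ones, 1.72-fold (log2 0.79 ± 0.18, SE; adjusted p = 0.00168, edgeR), with S37Y clone A5 the lowest high clone. *Nanog* read 198, 281 and 349 CPM against 278 to 627 (median 461), 1.69-fold (log2 0.76 ± 0.21, SE; adjusted p = 0.00742, edgeR), with both S37F clones, at 278 and 326 CPM, in the range of the low class. Without T41S clone H8 the adjusted p of *Nanog* was 0.109 (edgeR). *Dppa3* read 7.91, 34.7 and 28.2 CPM in the low clones and 2.05 to 44.1 (median 13.4) in the high ones, −0.15 ± 0.55 log2 (adjusted p = 0.875, edgeR).

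Medium clones already exceeded low clones in 8 factors and were lower in none, where 3.66% of genes were higher and 7.29% lower. The folds ran from 1.57 for *Zfp42* to 2.92 for *Tfcp2l1*. The 2 others were *Nanog* (log2 0.68 ± 0.24, SE; adjusted p = 0.0705, edgeR) and *Dppa3* (1.32 ± 0.60; adjusted p = 0.167, edgeR). Without T41S clone H8 the number was 5, with adjusted p of 0.118 for *Klf2*, 0.149 for *Zfp42* and 0.216 for *Nr0b1* (edgeR). From medium to high, *Tbx3* (log2 1.12, adjusted p = 0.00281), *Klf4* (0.70, adjusted p = 0.0163) and *Tfcp2l1* (0.66, adjusted p = 0.0185) were higher and *Dppa3* was lower (log2 −1.47 ± 0.42, SE; adjusted p = 0.0494, edgeR), where 2.13% of genes were higher and 2.37% lower. These are the 3 factors that rose with CHIR99021. *Tbx3* and *Tfcp2l1* did not overlap between medium and high clones, and the *Klf4*, *Tfcp2l1* and *Dppa3* calls were lost without S45F clone C1 or without S45P clone G5.

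Within the 9 high clones, taken alone, no factor rose with MES and *Nanog* and *Nr0b1* fell (log2 −0.91 and −0.76 per 10000 MES, each with an adjusted p of 0.0251, edgeR). S37F, the substitution with the highest MES, had the lowest *Nanog* and *Nr0b1* levels of the class in both clones, at 278 and 326 CPM and at 260 and 278 CPM. In the fit of the high clones, both clones of T41A, of T41I and of S37F shared a score and were taken as separate points. The share of all genes that fell in that fit is not given here. With both T41S and S45C left out, whose MES lay farthest from the median, *Tfcp2l1* and *Klf4* alone passed the test across the remaining clones. Far fewer of all genes were called in that fit too, so the lost calls are not a result about the factors. Without T41S alone the trends of *Klf2* and *Nr0b1* had adjusted p of 0.148 and 0.0665 (edgeR).

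T41S clone H8 was the lowest or second lowest clone for 9 of the factors, all but *Klf5*, and stood apart in other markers. It held 173 CPM of the 5 fibroblast markers (*Col1a1*, *Col1a2*, *Col3a1*, *Thy1* and *Twist2*), against 49.8 and 64.6 in the other low clones and 4.82 to 16.3 in the high ones. Of these, *Col1a1* was the 1 marker that passed the count filter, and it fell with MES. The 5 trophectoderm markers summed to 99.98 CPM in T41S against 36.2 and 64.6 CPM in the other low clones. Its 4 ES cell markers summed to 1043 CPM, against 1278 to 1828 in all other clones. In the high class, primitive endoderm markers varied from 124 to 979 CPM summed, with the highest sums in S37Y clone A5 and S37A clone A10 (651 CPM). The part of these markers in the results was not tested. Without T41S, the difference between high and low clones kept its call in all factors but *Nanog*.

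*Dppa3* had another order of clones. Its highest levels were in the S45F clones, 54.6 CPM (Wilson interval 44.3 to 67.3) in C1 and 66.0 (52.5 to 83.2) in D9, and its lowest in S37F clone G1, with 2 counts or 2.05 CPM (0.561 to 7.46). Among high clones, the 5 with codon 37 substitutions held 2.05 to 13.4 CPM and the 4 with codon 41 substitutions 21.6 to 44.1 CPM, with no overlap, a split chosen after the values were seen and not tested. The same split gave overlapping ranges of 175 to 269 and 128 to 179 CPM in *Tbx3*. *Dppa3* also differed most between clones of 1 mutation, with a within-mutation SD of 0.62 log2 over 4 pairs of clones, against 0.08 for *Tfcp2l1*, 0.10 for *Esrrb* and 0.12 to 0.25 for the other 7.

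Clone S45F D9 stood apart on chromosome 6, where *Nanog* and *Dppa3* lie. The median gene there was 0.44 log2 above its median over the clones (316 genes), while on the other 7 chromosomes of the factors all clones stayed between −0.05 and 0.12 log2. Its *Nanog* level was 440 CPM against 525 in S45F clone C1. Without D9, the adjusted p of *Dppa3* between high and medium clones was 0.255 (edgeR), and leaving out any of 9 other clones also took it past 0.05. S45C clone D3 had the highest shift on chromosome X, 0.12 log2 over 212 genes, where *Nr0b1* lies, and the median gene of X was 0.19 log2 lower in high than in low clones.

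The inhibitor and mutation contrasts were then set against each other in 1 fit of all 25 libraries. The difference between high and low clones exceeded that between 7.5 and 10 µM and untreated cells in 9 factors and fell short in none, where 9.73% of 11375 genes had a positive difference and 11.3% a negative one. *Nr0b1* had the largest gap, 2.27 ± 0.33 log2 (SE; adjusted p = 8.26e-06, edgeR), a rise of 1.36 in the clones against a fall of 0.89 with inhibitor. *Esrrb* followed with 1.54 ± 0.24 (adjusted p = 2.06e-05), *Tfcp2l1* with 1.43 ± 0.23 and *Zfp42* with 1.38 ± 0.22 (edgeR). *Klf2* and *Nanog* both had 1.23, and *Tbx3*, *Klf4* and *Klf5* had 1.20, 1.09 and 1.04. In *Tfcp2l1*, *Klf4* and *Tbx3* both contrasts were positive and the gap is one of size, while *Nanog*, *Klf2*, *Zfp42* and *Nr0b1* went opposite ways. *Dppa3* had a gap of 2.15-fold that did not pass (adjusted p = 0.291, edgeR). Without T41S clone H8 the adjusted p of *Tbx3* was 0.0735 (edgeR). The contrasts differ in their reference, untreated unedited cells for the one and low clones for the other, and in time under raised β-catenin, which cannot be told apart from the kind of activation.

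**Figure D3:**
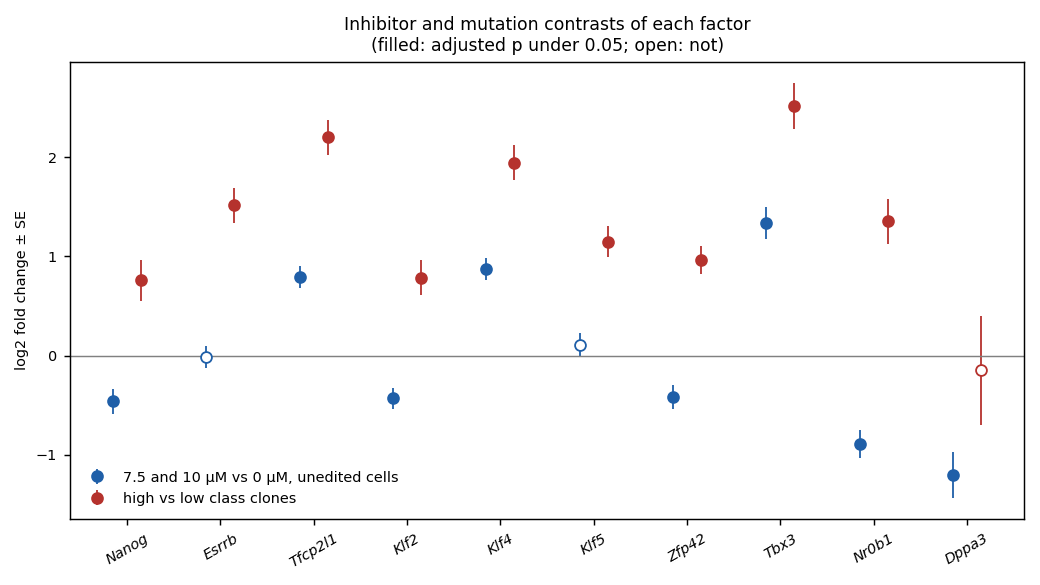
Log2 fold change ± SE of each naive factor for 7.5 and 10 µM CHIR99021 against 0 µM in unedited cells (blue) and for high against low class clones (red), with filled points at an adjusted p under 0.05. *Nanog*, *Klf2*, *Zfp42* and *Nr0b1* have filled points on opposite sides of 0, and *Tfcp2l1*, *Klf4* and *Tbx3* have both above 0.

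Against untreated unedited cells, which serve here and in the dose contrasts as the same 2 libraries, high clones were higher in 8 factors and lower in *Dppa3* alone, where 16.1% of genes were higher and 17.9% lower. The rises were 3.89-fold for *Tbx3*, 2.95-fold for *Klf4*, 2.69-fold for *Zfp42*, 2.58-fold for *Nr0b1*, 2.47-fold for *Tfcp2l1*, 2.01-fold for *Klf5*, 1.76-fold for *Esrrb* and 1.69-fold for *Nanog*. *Klf2* differed by 0.21 ± 0.17 log2 (SE; adjusted p = 0.349, edgeR) and *Dppa3* by −1.24 ± 0.43 (adjusted p = 0.0246, edgeR). All 9 high clones lay above every dose library in *Esrrb*, *Klf5*, *Zfp42* and *Nr0b1*, and the share of all genes that did so was not counted. Without 0 µM replicate 1 the adjusted p was 0.178 for *Nanog* and 0.142 for *Dppa3*, and without replicate 2 it was 0.136 for *Dppa3* (edgeR).

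Low clones were lower than untreated cells in *Tfcp2l1* (log2 −0.93, adjusted p = 0.000445), *Esrrb* (−0.73, adjusted p = 0.00553) and *Klf2* (−0.60, adjusted p = 0.0201, all edgeR) and higher in none, where 17.1% of genes were higher and 15.4% lower. *Esrrb* and *Klf2* were lost without T41S clone H8 (adjusted p = 0.0834 and 0.181, edgeR) and also without 0 µM replicate 1 (0.104 and 0.0831), and *Klf2* without 0 µM replicate 2 (0.0901). Without T41S, *Zfp42* was higher in the low clones than in untreated cells (log2 0.70, adjusted p = 0.00112, edgeR). Clones and unedited cells differ in editing, colony picking and mitochondrial share, and these cannot be told apart from the mutation in this comparison.

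The sums of the 10 factors were 2468 and 2604 CPM in the untreated libraries, 2756 to 2924 at the top doses, 1447 to 2451 in low, 3722 to 4398 in medium and 4808 to 5593 in high clones. Genes around the naive factors were read from further lists. Of 18 genes of the wider ES cell network, 2 rose and 12 fell of 17 tested with CHIR99021, with a median of −0.66 log2 per 10 µM. Of all genes tested, 5.89% rose and 6.63% fell with dose. The falls with the smallest adjusted p were *Utf1*, a chromatin-bound ES cell factor (−1.84 ± 0.18 log2, SE), *Fgf4*, the growth factor that feeds ERK signalling (−1.31 ± 0.15), and *Tcl1*, an AKT coactivator (−1.37 ± 0.19). *Gbx2*, a homeobox gene (2.12 ± 0.24), and *Tdh*, threonine dehydrogenase (0.78 ± 0.15), rose. With MES, 5 of the 18 rose and 1 fell, with a median of 0.17. Of all genes tested, 9.91% rose and 13.0% fell with MES, so the 1 fall is not a result about this list. *Dppa5a*, an RNA-binding protein gene (0.58 ± 0.10 log2 per 10000 MES), *Tet2*, a methylcytosine dioxygenase (0.89 ± 0.18), and *Tcl1* (0.63 ± 0.13) rose, and *Utf1* fell (−0.19 ± 0.07). *Tcl1*, *Tet2* and *Dppa5a* fell with dose and rose with MES, as *Klf2*, *Zfp42* and *Nr0b1* did.

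Of the 12 genes that feed into the network, 4 rose and 2 fell with dose, where 5.89% of all genes tested rose and 6.63% fell. With MES, 2 rose and 2 fell. With so few genes, the counts with MES are near the 9.91% and 13.0% of all genes that rose and fell, and are not a result about this list. *Socs3*, a feedback inhibitor and target of STAT3, rose in both (0.39 ± 0.12 log2 per 10 µM and 0.49 ± 0.09 per 10000 MES), as did *Stat3* itself. *Tcf7l1*, the repressor of naive genes, fell in both (−1.05 ± 0.16 and −0.48 ± 0.11). *Lef1*, the TCF-family activator, rose with dose (2.40 ± 0.34), and *Lifr*, the LIF receptor, fell (−1.08 ± 0.25). Neither passed the test with MES. Between high and low clones *Lef1* was lower (log2 −0.97 ± 0.29, adjusted p = 0.015, edgeR) and *Lifr* higher (0.85 ± 0.21, adjusted p = 0.00349, edgeR). Mean *Lef1* levels were 39.8, 10.3 and 19.1 CPM in low, medium and high clones and 9.92 CPM in untreated cells. *Tcf7* rose with dose (0.50 ± 0.16) and *Gsk3b* fell with MES (−0.37 ± 0.09).

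Genes of primed pluripotency, the later epiblast state, fell where they passed the trend tests. With dose 0 rose and 3 fell of 6 tested, *Pou3f1* (−2.69 ± 0.33 log2 per 10 µM, SE), *Dnmt3b* (−0.77 ± 0.18) and *Dnmt3a* (−0.66 ± 0.22). With MES 0 rose and 5 fell of 7, led by *Pou3f1*, a POU-domain factor (−1.77 ± 0.13 log2 per 10000 MES), *Cldn6*, a claudin (−1.16 ± 0.12), and *Sall2* (−1.35 ± 0.19). *Pou3f1* read 101 to 181 CPM in the low and 5.59 to 16.3 in the high clones. *Zic2* went the other way between classes, with 0 counts in all 3 low clones and 3 to 17 in each high clone. With counts pooled over each class, the high class stood 6.05-fold above a floor of 3 counts in the low class. This ratio leaves out the spread between clones and the counting error of the high class. Of lineage markers, *T* and *Mixl1*, genes of the primitive streak, rose with dose (2.74 ± 0.36 and 4.05 ± 0.57 log2 per 10 µM). The 8 mesendoderm markers summed to 17.4 and 20.2 CPM in untreated libraries and 124.5 to 169.8 at the top doses. In low, medium and high clones they summed to 28.25 to 85.3, 17.6 to 30.6 and 27.9 to 100.2 CPM. With MES, *T* did not pass (0.23 ± 0.20 log2 per 10000 MES, adjusted p = 0.45, edgeR) and *Mixl1* was below the count filter. Neural markers summed to 99.9 and 104 CPM untreated, 38.4 to 43.8 at the top doses, 141 to 223 in low clones and 23.1 to 93.9 in high clones. Both trophectoderm markers and both primitive endoderm markers tested rose with dose (2 of 2 each), and with MES 1 of 6 primitive endoderm markers rose, 1 of 2 two-cell-like markers rose, all 4 neural markers tested fell and 1 of 1 trophectoderm marker fell. Over all genes 5.89% rose and 6.63% fell with dose, and 9.91% rose and 13.0% fell with MES. Counts of 1 in these short lists are therefore not results about them. Over the whole trend, neither fibroblast marker tested passed with dose (0 of 2). The part of all these markers in the results was not tested.

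**Figure D4:**
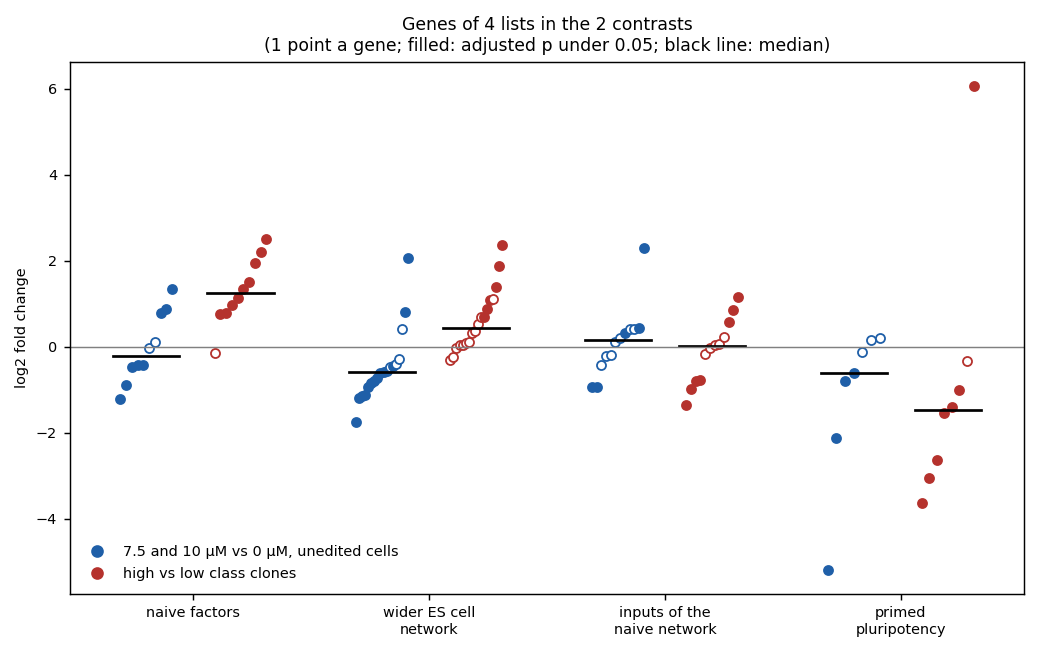
Log2 fold change of each tested gene of 4 lists for 7.5 and 10 µM CHIR99021 against 0 µM (blue) and for high against low class clones (red), with filled points at an adjusted p under 0.05 and black lines at the medians. The medians of the naive factors are −0.21 and 1.25, and the topmost primed point is *Zic2*, whose fitted value is no bound since all low clones were at 0.

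Over the 15 clones, the gene outside the group most like each factor by Pearson *r* of log2 (CPM + 1), among the 6992 genes averaging 20 CPM or more, was *Lap3* for *Tfcp2l1* (*r* = 0.983), *Fzd5* for *Nr0b1* (0.977), *Tet2* for both *Tbx3* (0.974) and *Klf4* (0.965), and *Slc25a36* for *Esrrb* (0.969). It was *Asns* for *Klf5* (0.95), *Triml2* for *Zfp42* (0.949), *Gtsf1l* for *Klf2* (0.946), the noncoding RNA gene *Lncenc1* for *Dppa3* (0.919) and *Nbr1* for *Nanog* (0.916). These are the highest of many values over clones that share the class difference. *Lncenc1* had class means of 182, 248 and 137 CPM in low, medium and high clones, with the medium class highest, as *Dppa3* had with 23.6, 50.4 and 17.97 CPM.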

How the data were processed

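Transcripts of 25 mcSCRB-seq libraries, 10 of unedited E14 cells and 15 of mutant clones, were analysed from the deposited table of UMI counts per gene. The authors made these counts by aligning to mm10 with RNA STAR and counting with featureCounts 2.0.1. Before that, reads passed Cutadapt and SortMeRNA. Duplicates were handled with UMI-tools and Picard MarkDuplicates, and the counts are not normalized. Of 48440 gene IDs, 48058 matched GENCODE M21 symbols, and all 25 count columns were used. Multi-mapping, strand and annotation settings are not given in the sources used here, which bears on *Tbx3* and on genes with pseudogene copies such as *Nanog*, *Dppa3* and *Pou5f1*.

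Counts were fitted in edgeR 4.0.16 (R 4.3.3) with TMM factors, filterByExpr with a minimum count of 10, and the quasi-likelihood F-test, adjusted by Benjamini-Hochberg over all genes tested, with 0.05 as the threshold. Predictors were the dose, the MES per 10000 units taken from the study's screen, the 5 doses, or the 3 MES classes. Clones against unedited cells, and the difference between the contrasts, came from 1 fit of all 25 libraries. CPM use library totals. The steps were tested on simulated data. Where nothing says that libraries of a dose came from separate cultures, p-values measure only the spread between these libraries. Between same-dose libraries, chi-square per degree of freedom was 1.36 to 2.19, above sampling noise alone. Between separate clones of the same mutation it was 1.80 to 3.99, which includes differences between clones.

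The members, gene lists and tests were chosen with earlier results of these data known. Named are the 10 factors, per list and trend up to 3 genes in each direction with the smallest adjusted p under 0.05, and the most alike gene of each factor, with *Zic2* and the listed markers added after their values were seen. Alternatives were RLE factors, no filter, DESeq2 1.42.0, thinning to the smallest library, leaving out each library, a replicate block, a block by mitochondrial share (set apart at 0.8%), other doses, MES codings and clone sets. Leaving out each library in the fit of all 25 was added after the data were seen. Promoters are from RefSeq (GRCm38.p6).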

Additional observations from a re-analysis of the deposited data

Results flagged for a closer look

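The effect of mutation (high minus low class clones) differed from the effect of inhibitor (7.5 and 10 minus 0 µM CHIR99021) by a test of the difference itself in 9 of the 10 factors (edgeR quasi-likelihood F-test, adjusted p from 8.26e-06 to 0.00866). The differences were 1.23 log2 for *Nanog*, 1.54 for *Esrrb*, 1.43 for *Tfcp2l1*, 1.23 for *Klf2*, 1.09 for *Klf4*, 1.04 for *Klf5*, 1.38 for *Zfp42*, 1.20 for *Tbx3* and 2.27 for *Nr0b1*. Of 11375 genes, 9.73% had a positive difference and 11.3% a negative one. The factors were proposed for their opposite movement in these same libraries, so the test describes that movement and is not independent evidence of it. In the 9 high clones no value of the 10 factors stood farther from its neighbour than Dixon's 95% critical value, and the widest gaps were 0.440 of the range for *Esrrb* in T41A clone E6 and 0.421 for *Dppa3* in T41I clone B9.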

How the results depend on the processing

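RLE factors changed no call of a factor in any comparison. With no filter, calls of factors were only gained, and the count of all genes called between high and medium clones rose from 471 to 739. DESeq2 lowered the falls of factors from 1 to 0 at 2.5 µM, from 5 to 3 at the top doses, from 1 to 0 between 2.5 µM and the top doses, from 1 to 0 both for high against medium and for high clones against untreated cells, and the rises with dose from 3 to 2, with 86, 608 and 55 genes called over the dose steps against 248, 1687 and 177. Thinning the counts to the smallest library left 2 falls with dose (252 genes called against 1256), 1 rise and 0 falls at 2.5 µM (21 genes), 0 falls at the top doses (394) and 0 against 2.5 µM (26), and 1476 genes with MES (of 2320), 1901, 590 and 242 for high against low (3110), medium against low (1145) and high against medium. This alternative has fewer counts by construction, and its lost calls in the dose trend and at 2.5 µM kept their direction.

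Without the 0 µM libraries, 0 factors rose and 1, *Dppa3*, fell with dose, 121 genes were called, and *Tfcp2l1* was at −0.10. With the mitochondrial share as a block, 545 genes were called at 2.5 µM, and 357 genes and 3 falls against 2.5 µM. Without T41S and S45C, 2 factors rose with MES (385 genes called). In the 9 high clones 0 rose and 2 fell (207 genes), with slopes of −0.91 for *Nanog*, −0.20 for *Esrrb*, −0.14 for *Klf4*, −0.30 for *Zfp42*, −0.44 for *Tbx3* and −0.76 for *Nr0b1*. The causes were not tested. Rank of dose or MES, sums per mutation, the other MES of T41A and a depth covariate kept 7 to 9 factors rising with MES and 3 rising and 5 falling with dose.

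Same-numbered dose libraries did not deviate together (*r* from −0.124 to 0.111 over 10 pairs of doses, 2 above 0.1), so the numbers were not taken to pair the samples. The replicate block left 0 factors falling at 2.5 µM and changed no other call of a factor, with 1140 genes called with dose, and 231, 1551 and 177 over the steps.

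Leaving out each library in turn, the lone library of a dose being assumed to vary like the others, gave 527 to 1325 genes, 2 to 3 rises and 4 to 5 falls with dose, 71 to 273 genes, 2 to 3 rises and 0 to 1 falls at 2.5 µM, 681 to 1801 genes and 3 to 5 falls at the top doses, and 57 to 201 genes and 0 to 2 falls against 2.5 µM. It gave 1199 to 2388 genes with MES, 1653 to 3264 for high against low, 276 to 1433 genes and 5 to 9 rises for medium against low, and 106 to 811 genes, 1 to 3 rises and 0 to 1 falls for high against medium. The difference between the contrasts had 1344 to 2522 genes. Low clones against untreated cells had 1998 to 3795 genes, 0 to 1 rises and 1 to 5 falls, and high clones 1626 to 4109 genes and 0 to 1 falls. The lowest counts came without 0 µM replicate 1 in the dose fits against 0 µM and in those of clones against untreated cells, without 2.5 µM replicate 2 for the top doses against 2.5 µM, without S45F clone D9 for high against medium, and without T41S clone H8 in the fits of MES, of high and medium against low clones and of the difference.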
